A study of Mus musculus with 46 samples.

Results

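Older L1 loci are copies of the LINE-1 (L1) repeat whose RepeatMasker-style name does not start with L1Md_, the prefix of the young mouse L1 subfamilies. They were chosen by their measured level in the deposited repeat table of the total RNA libraries, with 3 criteria: family L1, no L1Md_ prefix, and a mean of the 4 log2 sample values of at least 2, which is about 4 normalised reads. The criteria kept 14789 loci out of 778504 older L1 loci and out of 5147736 repeat loci of all kinds. Because the level itself chose them, how many loci passed and how high they lie is a description and supports nothing else. The level was averaged over both groups, and 13801 loci had both group means at or above 2, while 510 passed only through the control group and 478 only through the knockout group.

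L1 elements are retrotransposons that copy themselves through an RNA intermediate, which their own reverse transcriptase and endonuclease write back into the genome. Most copies are truncated at the 5′ end, carry mutations and cannot move; the names L1_Mus, L1_Mur, L1VL and Lx mark rodent-lineage copies and L1MA to L1ME mark copies found widely among mammals. A copy inside a gene is transcribed along with the gene's precursor RNA, so RNA counted on an L1 copy need not have started at an L1 promoter. The reads were counted with no strand option in the file header, so an L1 and a gene on the other strand cannot be told apart by these values.

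The study grew B16F10, a mouse melanoma cell line, with a scrambled guide RNA (sgScramble) or with a guide against Arid1a (sgArid1a), a subunit of the BAF chromatin remodelling complex. The comparison of repeats rests on 2 untreated sgScramble and 2 untreated sgArid1a libraries whose molecule is labelled total RNA, although the library protocol names an mRNA kit. Gene values come from 2 untreated sgScramble and 2 untreated sgArid1a cultures with mRNA libraries, fitted together with Cgas and Sting double knockouts that also carry sgArid1a. How the guides were delivered, whether a line is 1 clone and whether replicates are separate cultures are not given in the sources used here. The p-values therefore measure only the spread between these libraries. For a single locus that spread is mostly pooled from all loci fitted (27 prior degrees of freedom) and not measured on the locus alone.

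The repeat libraries held 62.6, 62.9, 73 and 71.9 M reads and the 4 mRNA libraries held 8.68 to 22.8 M. In the mRNA libraries Arid1a read log2 10.90 and 11.08 with the scrambled guide against 10.43 and 10.39 with its own guide, a fall of 0.58 ± 0.11 (SE; adjusted p = 0.00431, limma; 0.0523 without sgArid1a replicate 2). Melanocyte genes such as Pmel, Dct and Tyrp1 lay between 16.33 and 17.07, while the leukocyte genes Ptprc and Cd3e and the fibroblast gene Dcn were listed at 0 in all 4 libraries. Other genes of those lists were read: the collagen gene Col1a2 at 7.76 and 7.58 in sgScramble against 7.05 and 7.21 in sgArid1a, and the macrophage gene Cd68 at 5.21 and 5.09 against 4.77 and 4.67. Their part in the results was not tested. In bulk RNA, fewer cells with an RNA and less RNA per cell cannot be told apart.

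The stretches that carry the results are printed here, 5′ to 3′ on the strand of the transcript, in GRCm38 (mm10) coordinates. Those of transcripts come from GENCODE and the window at a gene start from RefSeq (GRCm38.p6). The first is the end of Rpph1, the RNA of ribonuclease P, at chr14:50807449-50807528 on the minus strand, with the 5 bases it shares with the highest older L1 locus in capitals. The next is part of Rps24-ps3, a pseudogene inside the next highest locus, at chrX:79195246-79195445 on the plus strand, with the bases that differ from the Rps24 coding sequence in capitals.
Rpph1 end: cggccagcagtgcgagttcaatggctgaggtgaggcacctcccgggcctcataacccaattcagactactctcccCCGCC
Rps24-ps3 in L1_Mus1: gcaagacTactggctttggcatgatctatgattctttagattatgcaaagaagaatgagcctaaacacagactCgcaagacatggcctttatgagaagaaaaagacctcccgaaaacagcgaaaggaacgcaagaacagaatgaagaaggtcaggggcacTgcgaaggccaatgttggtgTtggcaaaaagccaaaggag
The remaining stretches belong to loci whose RNA changed. Capitals mark the bases of the L1 locus in the exon of the long non-coding RNA Gm31517 (chr14:15036463-15036645, minus strand) and in that of the long non-coding RNA Gm38414 (chr8:36160236-36160425, plus strand, where the Lx7 copy lies on the minus strand). In the last stretch, chr14:15027348-15027547 on the minus strand, which lies wholly inside an Lx2 copy, they mark the first 50 transcribed bases of the RefSeq gene Gm46441.
L1_Mus3 in Gm31517: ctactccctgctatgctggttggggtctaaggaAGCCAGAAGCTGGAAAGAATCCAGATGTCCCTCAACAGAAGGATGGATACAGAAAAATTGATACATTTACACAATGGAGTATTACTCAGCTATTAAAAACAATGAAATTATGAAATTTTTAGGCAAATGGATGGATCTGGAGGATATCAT
Lx7 in Gm38414: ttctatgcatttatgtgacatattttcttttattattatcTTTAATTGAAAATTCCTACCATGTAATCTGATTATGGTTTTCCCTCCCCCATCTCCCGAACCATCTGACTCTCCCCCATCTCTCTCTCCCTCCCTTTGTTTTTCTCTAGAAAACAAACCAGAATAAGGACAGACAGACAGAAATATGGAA
Lx2 with the start of Gm46441: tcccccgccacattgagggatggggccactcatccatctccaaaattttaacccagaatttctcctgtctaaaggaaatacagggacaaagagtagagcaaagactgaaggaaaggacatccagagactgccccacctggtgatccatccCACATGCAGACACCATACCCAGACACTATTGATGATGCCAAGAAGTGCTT

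Detection differed between subfamily groups. Of all older L1 loci 1.9% passed the level, against 0.876% of the 126672 L1Md loci and 2.01% of all repeats. The L1VL group passed most often, with 509 of 12585 loci (4.04%), followed by L1MB with 1113 of 30206 (3.68%). L1_Mm passed least often, with 43 of 5429 (0.792%), and Lx, the largest group, gave 6160 members from 346814 loci (1.78%). The members were longer than the loci of the table, with a median of 543 bases against 275, while their median divergence from the consensus was the same 22.5%. Within name groups the medians did differ. Members were less diverged in L1VL (8.7% against 12.4%), L1_Mur (17.7% against 19.2%) and Lx (19.9% against 21.1%). They were more diverged in HAL1 (27.3% against 25.7%) and L1_Mm (7.1% against 6.1%). L1_Mus members diverged by a median of 8% and L1ME members by 28.9%. A longer locus collects more reads at the same coverage, so a level given for a locus is not per base, and differences in level between loci or sets of loci are descriptions that hold length as well.

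Levels were mostly low. There were 8899 members (60.2%) between log2 2 and 3, 3618 (24.5%) between 3 and 4, and 75 at 8 or above. Just inside the limit lay an L1_Mur3 locus at chr3:133054250-133054645 with 1.75 and 2.03 in sgScramble against 1.91 and 2.31 in sgArid1a, and just outside it an L1MB7 locus at chr14:31197170-31197414 with 1.93 and 2.60 against 1.70 and 1.77.

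Position was not used to choose the members. By GENCODE 10747 members (72.7%) lay in introns, 1905 (12.9%) overlapped an exon and 2137 (14.4%) lay outside genes. The L1Md loci past the same level lay outside genes in 39.5% of cases and the other repeats in 12.7%. The share that overlapped an exon grew with the level, from 7.71% of the 8899 members between 2 and 3, through 27.5% of the 1856 between 4 and 6 and 60.7% of the 341 between 6 and 8, to 78.7% of the 75 at 8 or above. Of the exonic members, 801 overlapped an untranslated region without touching coding sequence, 1015 a non-coding transcript alone and 89 coding sequence. Inside a single gene span of the deposited gene table, 7433 members lay on the strand opposite to the gene and 3859 on the same strand. Only 25 members held a RefSeq gene start, 1 of them past the test's threshold.

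The 5 highest members all overlapped an annotated transcript that is not an L1. The highest, a 211-base Lx7 locus at chr14:50807243-50807453, read log2 15.56 and 15.80 in sgScramble against 15.99 and 15.66 in sgArid1a; it shares only the 5 bases printed above with Rpph1. After it, an L1_Mus1 locus of 5949 bases at chrX:79190355-79196303, read 13.97 and 14.15 against 14.07 and 13.92. It holds Rps24-ps3, a processed copy of the ribosomal protein gene Rps24, whose 399-base coding match differs from Rps24 at 4 bases, all 4 in the printed stretch.

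Next, an Lx3B locus of 5571 bases at chrX:152907041-152912611, read 13.51 and 13.66 against 13.70 and 13.41 and holds Gm6472, 84.2% of whose 31-base words also occur in the ribosomal protein gene Rps7, and Rpl7a-ps12. An L1_Mus2 locus at chr3:5746274-5752571, read 13.05 and 12.98 against 13.28 and 12.81. It holds Gm8797, which shares 85.7% of its words with the ubiquitin gene Ubb. Last, an L1_Mus3 locus at chr5:87736067-87737496, read 12.65 and 12.72 against 12.82 and 12.52 and holds Gm42845, a pseudogene of 105 bases whose words all occur in Rps7. In each of these loci the groups overlapped, with changes between -0.06 and 0.15. The L1_Mus1, Lx3B and L1_Mus2 loci are also the 3 highest among members of at least 5000 bases. How reads that match several places were assigned is not given in the sources used here, so these levels cannot be split between the L1 locus and the parent gene.

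The main comparison asked which loci differ between sgArid1a and sgScramble. At 56 of the 14789 members the level changed (limma over all 103654 repeat loci past the level, Benjamini-Hochberg adjusted p under 0.05): 17 rose and 39 fell. Some of these passed the level only through the group where they were higher. Examples are an L1_Mur1 fall on chromosome 2 (3.04 and 2.56 in sgScramble against 1.94 and 1.91 in sgArid1a) and an L1_Mus3 rise on chromosome 5 (1.83 and 1.96 against 2.54 and 2.97). For such loci the choice itself favours the direction called. Over all repeat loci 0.369% passed in either direction, 0.107% higher and 0.262% lower, and the members' counts lie near those shares. The groups did not overlap, upward, at 2956 members and, downward, at 2439, where all repeat loci gave 20.9% and 16.3%. The median change was 0.01 over the members and 0.02 over the 87755 other repeats. By the adjusted p of the authors' deposited table, members past 0.05 numbered 15, with 4 higher and 11 lower, out of 125 loci of all kinds. Without sgScramble replicate 2 the count was 112, with 27 higher and 85 lower, of which 40 were shared with the 56.

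Part of the loci that changed lay close together. Joining neighbours within 200 kb put the 55 of them on chromosomes other than 18 into 30 places, of which 22 held a single locus. The 5 places with at least 3 each held 27 of the 55 (49.1%). Joined in the same way, the 377 repeat loci of all kinds that changed, the 55 included, had 42.4% in such places. The 322 other than older L1 had 38.5%. A fixed distance joins a larger set more readily, so these shares are not a like comparison. Chromosome 7 had 16 of the 39 that fell, and all 8 on chromosome 14 rose. These places were chosen after their values were seen.

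The largest falls were inside Oca2, which encodes a melanosome membrane transporter needed for pigmentation. An L1_Mus4 locus of 3030 bases in an Oca2 intron, chr7:56370607-56373636 on the gene's own strand, read log2 7.30 and 7.46 in sgScramble against 5.22 and 5.34 in sgArid1a. Both knockout libraries lay about 2 units under both controls, a change of -2.097 ± 0.198 (SE, n = 2 a group; adjusted p = 3.69e-07, limma). Within 2 kb of each other in the same gene, on the opposite strand, lay the Lx5c locus chr7:56335492-56336164 and 2 L1MA5A loci. The Lx5c locus read 7.79 and 7.79 against 6.20 and 6.10, a change of -1.64 ± 0.19 (adjusted p = 7.35e-06). The L1MA5A locus chr7:56334412-56334780 read 6.61 and 6.58 against 4.80 and 5.04, and its neighbour chr7:56334929-56335187 read 4.99 and 5.44 against 3.62 and 3.65. Their changes were -1.68 and -1.58.

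All 12 members between the first and the last called locus in Oca2 had a negative change, from -2.097 to -0.41, and 9 of them fell. Among the 9, the L1MA4 locus chr7:56260240-56261510 and the Lx5c locus chr7:56350140-56350915 passed the level only through sgScramble. They read 2.56 and 2.71 against 1.71 and 1.80, and 2.37 and 2.71 against 1.78 and 1.64. The mean level of the 12 was 4.598 and 4.589 in sgScramble against 3.43 and 3.42 in sgArid1a. The same stretch held 14 other repeats and 3 L1Md loci past the level, all 17 with a negative change, of which 4 and 1 fell. Oca2 itself, in the separate mRNA cultures, read 8.29 and 8.38 against 7.35 and 7.45, a fall of 0.93 ± 0.11 (adjusted p = 0.000105).

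Both other chromosome 7 places lay at pigment cell genes. In Trpm1, a cation channel gene active in melanocytes, 3 of 4 members fell, among them the L1M4 locus chr7:64214627-64215124, which read 4.09 and 4.15 against 3.04 and 2.96. Trpm1 mRNA fell by 2.27 ± 0.10 (adjusted p = 2.51e-08). At Tyr, which encodes tyrosinase, 4 of 15 members fell: an Lx8 locus in its untranslated region (chr7:87426718-87427028; 8.93 and 9.05 against 7.90 and 7.83) and 3 Lx3B loci that lie 7860 to 9144 bases outside the annotated gene. The strongest of these, chr7:87502656-87503400, read 6.86 and 6.74 against 5.18 and 5.28, a change of -1.57 ± 0.20 (adjusted p = 3.3e-05). Tyr mRNA fell by 0.63 ± 0.09 (adjusted p = 0.000874).

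Also among the 5 largest falls, an Lx4B locus of 2723 bases in an intron of the long non-coding RNA Gm35330 (chr13:5661457-5664179), read 5.39 and 5.94 against 3.90 and 4.23, a change of -1.60 ± 0.22 (adjusted p = 0.000137). The groups were over 1 unit apart. A HAL1 locus in the coding sequence of Map1b, a microtubule-binding protein gene, read 9.01 and 9.13 against 7.85 and 7.79, and Map1b mRNA fell by 1.14 ± 0.11 (adjusted p = 3.11e-05). Both Lx8 loci that fell on chromosome 15 lay in untranslated regions of Gsdmc and Gsdmc2, gasdermin genes. The Lx7 locus in Gm38414 printed above (chr8:36160276-36160807) read 4.73 and 5.44 against 3.79 and 3.92, a change of -1.23 (adjusted p = 0.00557), which missed the threshold without sgScramble replicate 2 (-0.88, adjusted p = 0.0979).

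The largest rise was also the only change past the threshold in a member of at least 5000 bases. This L1_Mus2 locus of 6232 bases, chr14:15161856-15168087, lies outside annotated genes, 4643 bases from Gm47758. It read log2 4.58 and 4.89 in sgScramble against 6.10 and 6.49 in sgArid1a, a change of 1.56 ± 0.21 (adjusted p = 0.000108). Both knockout libraries lay over 1 unit above both controls.

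It closes a stretch of the chromosome that begins in Gm31517. There the L1_Mus3 locus printed above, chr14:15035675-15036612, lies whole inside a Gm31517 exon on the transcript's strand and read 6.89 and 6.99 against 8.03 and 8.11, a change of 1.14 ± 0.19 (adjusted p = 0.00139). The L1_Mus1 locus chr14:15016482-15019263 in an intron read 3.61 and 3.47 against 4.50 and 4.97, a change of 1.20 ± 0.22 (adjusted p = 0.0047), which without sgArid1a replicate 2 was 0.965 and missed the threshold (adjusted p = 0.119). The L1VL2 locus chr14:15056140-15058786, which overlaps an exon on the opposite strand, read 5.72 and 4.88 against 6.32 and 6.39, a change of 1.06 ± 0.23 (adjusted p = 0.0257). Its sgScramble libraries differ by more than its groups at their nearest, and without sgScramble replicate 2 its change was 0.64 and missed the threshold (adjusted p = 0.399).

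The Lx2 locus that holds the printed start of Gm46441, chr14:15027217-15027841, read 5.03 and 5.10 against 6.06 and 5.92, a change of 0.92 (adjusted p = 0.0293). It missed the threshold without sgScramble replicate 1 (adjusted p = 0.111) and without sgArid1a replicate 1 or 2 (0.185 and 0.0525), and with the replicate block (0.0523). Of the 22 members in this stretch 21 had a positive change and 8 rose, with a mean level of 3.66 and 3.52 in sgScramble against 4.25 and 4.37 in sgArid1a. All 30 other repeats there were higher as well, 6 of them past the threshold, and so were both L1Md loci, 1 past it. The rise in this place was thus measured on several repeat families and not on older L1 copies alone.

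**Figure D1:**
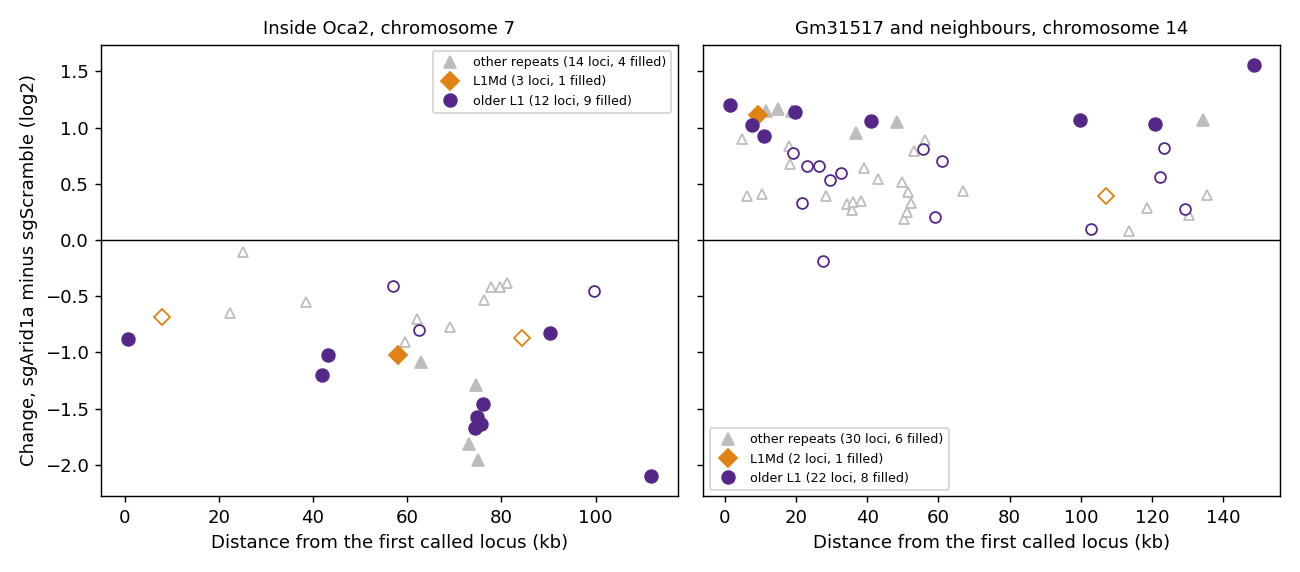
Change of each repeat locus past the level (y axis, log2, sgArid1a minus sgScramble) against its distance from the first called older L1 locus of the place (x axis, kb), filled where the adjusted p is under 0.05. In Oca2 all 29 loci lie under 0, and on chromosome 14 all but 1 of 54 lie above it.

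The other rises were scattered. On chromosome 9, 3 of 5 neighbouring L1MB8 fragments between 37272366 and 37275086, next to Gm47640 and Gm18329, rose; the strongest in level read 7.51 and 7.82 against 8.73 and 8.64, and missed the threshold without sgScramble replicate 1 (adjusted p = 0.121). An L1MB8 locus in an intron of Plxnd1, a semaphorin receptor gene, at chr6:115965061-115965622 on the gene's strand, read 5.09 and 5.05 against 6.07 and 6.37, a change of 1.15 ± 0.21 (adjusted p = 0.00361). Plxnd1 mRNA rose by 0.59 ± 0.12 (adjusted p = 0.0066; 0.094 without sgArid1a replicate 1). In each of these the knockout libraries lay above the controls, which for the Plxnd1 locus was a condition of its choice.

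**Figure D2:**
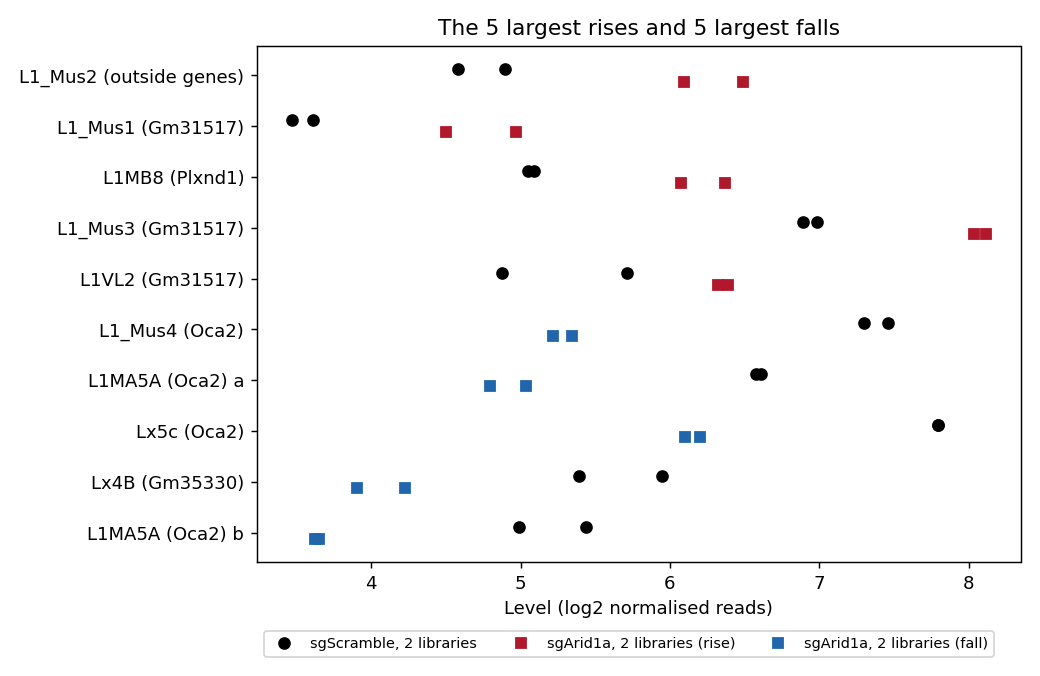
Level (x axis, log2 normalised reads) of the 5 largest rises and the 5 largest falls, 1 row a locus with its gene in brackets. They were taken among members with a mean of at least 4 and groups that do not overlap. Circles are the 2 sgScramble libraries and squares the 2 sgArid1a libraries. That circles and squares do not overlap in any row follows from this choice.

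Members were then set beside the genes that hold them, whose own values come from the other cultures. Of the 39 loci that fell, 20 lay in a gene tested in mRNA; 18 of these were in a gene with a negative value and 16 in a gene that fell. These 16 loci lie in 6 genes, with 9 in Oca2, 3 in Trpm1 and 1 each in Tyr, Map1b, Gsdmc and Sept11, so they are not separate cases. The 9 in Oca2 include the L1MA4 and Lx5c loci that passed the level only through sgScramble. Of the 147 other repeats that fell in a tested gene, 141 were in a gene with a negative value and 90, in 47 genes, in a gene that fell. Of the 17 that rose, 4 lay in a tested gene, 2 of them in a gene with a positive value and 1 in a gene that rose. Among the 11144 members in a tested gene that did not change, 51.2% had the sign of their gene. The 758 members in genes whose mRNA fell had a median change of -0.08, with means of 3.10 and 3.07 against 2.95 and 3.03, and 16 of them fell. The 512 members in genes whose mRNA rose had a median of 0.06, with 3.14 and 3.14 against 3.21 and 3.23, and 1 rose. The 9898 in genes that did not pass had a median of 0.04, with means of 3.05 and 3.04 against 3.06 and 3.10. The means do not overlap between groups in any of these sets, so non-overlap does not set apart genes whose mRNA changed.

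Across the 637 genes with at least 5 members and an mRNA value, the median change of the members and the change of the gene had a Pearson r of 0.303 and a Spearman rho of 0.125; without Oca2, Trpm1 and Tyr the Pearson r over 634 genes was 0.169. The genes share 4 repeat libraries and 4 mRNA libraries, so these are descriptions. The genes that hold most members were Prkg1 with 54, Pde4d with 37, Chsy3 and Dst with 36 each and Gulp1 with 32, and no member of these changed. Their members' median changes were -0.03, -0.10, 0.08, -0.01 and 0.08. In mRNA Pde4d, a phosphodiesterase gene, fell by 0.41 ± 0.12 (adjusted p = 0.0492), from 7.17 and 7.46 to 6.94 and 6.89, and the other 4 did not pass. Pde4d missed the threshold with the replicate block (adjusted p = 0.12), without sgScramble replicate 2 (0.152) and without sgArid1a replicate 1 or 2 (0.171 and 0.233).

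**Figure D3:**
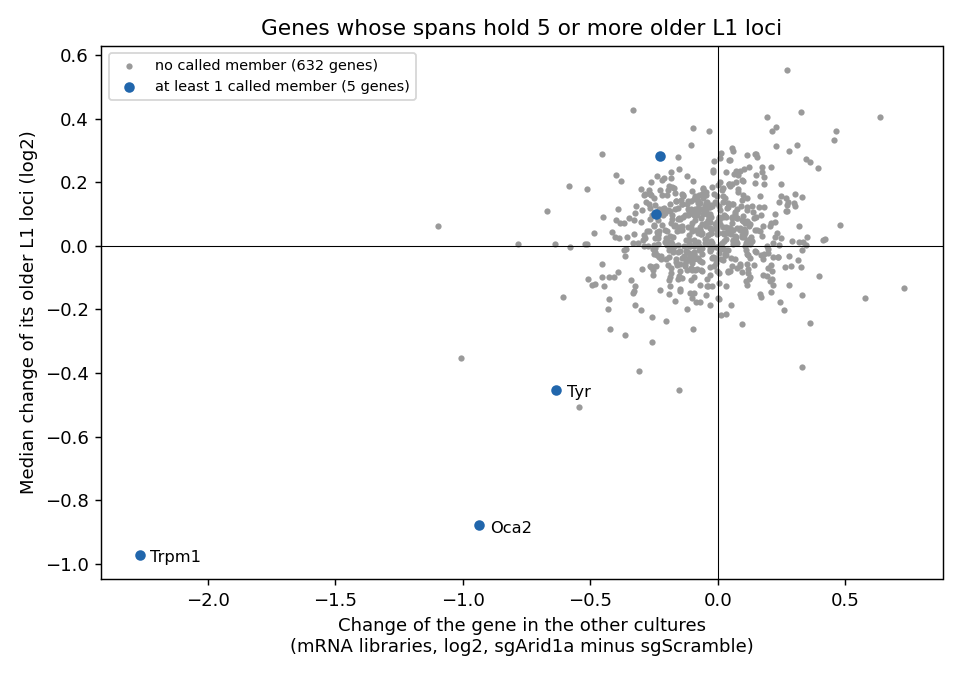
Median change of a gene's older L1 loci in the repeat libraries (y axis, log2) against the gene's own change in the mRNA libraries of other cultures (x axis, log2), for 637 genes with at least 5 members. Trpm1, Oca2 and Tyr, 3 of the 5 genes with a called member (blue), lie at the lower left; most genes lie within 0.5 of 0 on both axes.

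Averaged per subfamily, older L1 RNA showed no change past the threshold. The 105 older L1 subfamilies with at least 5 members were fitted among 839 repeat subfamilies, of which 0.00% passed; in limma none of the 105 did, 8 had an unadjusted p under 0.05, where all subfamilies gave 8.34%, and the smallest adjusted p was 0.353. There were 64 with a positive and 41 with a negative change, between -0.13 and 0.20, with a median of 0.01, as for the other subfamilies. Groups did not overlap upward in 28 and downward in 2, against 27.1% and 11.8% of all subfamilies. The smallest p belonged to L1MDb, with 6 members and means of 2.83 and 2.92 in sgScramble against 3.07 and 3.07 in sgArid1a (change 0.20 ± 0.04). L1ME2z followed, with 29 members at 3.34 and 3.33 against 3.48 and 3.51 (0.16 ± 0.04, adjusted p = 0.353).

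L1M3de, L1M1 and HAL1b, with 7, 5 and 8 members, had changes of 0.13, 0.11 and 0.10 and adjusted p-values of 0.559, 0.559 and 0.578. The subfamilies with most members moved less. Lx8 (1134 members) read 3.08 and 3.09 against 3.12 and 3.13, a change of 0.04 ± 0.03, and Lx9 (817) read 2.992 and 2.993 against 2.998 and 3.037. L1_Mus3 (780), Lx7 (678) and L1_Mus1 (536) had changes of -0.003, 0.006 and -0.02, with groups that overlap. By name group the median change of members ran from -0.035 in L1VL to 0.041 in L1MA. Of the 39 loci that fell, 23 were Lx, a group that makes up 41.7% of the members. Outside chromosome 18, 22 of these Lx loci lay in 14 places, and 9 of the 22 were on chromosome 7. Of the 17 that rose, 7 were L1_Mus (12.9% of the members), 5 of them in the chromosome 14 place, and 5 were L1MB (7.53%), 3 of them in the chromosome 9 place.

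Over all 14789 members the level averaged 3.10 and 3.07 in the sgScramble libraries against 3.07 and 3.12 in the knockout libraries, a difference of 0.011 with overlapping groups (exact permutation test, two-sided p = 0.667; 2 libraries against 2 cannot go below 0.333). Set against the L1Md loci of the same library, the members lay 0.016 and 0.13 higher in sgScramble against 0.17 and 0.13 higher in sgArid1a, a difference of 0.074 (exact p = 0.667) that was 0.0151 without sgScramble replicate 1 and 0.132 without sgScramble replicate 2. The mean level of members outside the gene spans minus that of members inside them came to 0.19 and 0.13 for sgScramble, against 0.098 and 0.089 for sgArid1a. Both sgArid1a values were under both sgScramble values, by 0.066 on average, with the smallest exact p that 2 against 2 can give (0.333). The sets differ in length. Within the 4 length classes, from the shortest to the longest, the same difference between groups was -0.021, -0.05, -0.13 and -0.075. In the longest class the groups overlapped, at -0.635 and -0.788 in sgScramble against -0.751 and -0.822 in sgArid1a. In the shortest they lay close, at 0.287 and 0.296 against 0.276 and 0.264. The level itself was higher outside genes in the 2 shorter classes and lower in the 2 longer ones.

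Long copies differed most between libraries of 1 group. The 472 members of at least 5000 bases averaged 3.31 and 2.96 in sgScramble against 2.91 and 3.08 in sgArid1a, so sgScramble replicate 1 stood apart and the groups overlapped. Their median change was -0.13, and 36.4% of them lay inside gene spans. Of these 472 members, 22 did not overlap upward and 110 downward, where all repeat loci gave 20.9% and 16.3%. The 6891 shortest members averaged 3.03 and 3.05 against 3.06 and 3.07, with a median change of 0.03 and 82.2% inside gene spans. The L1Md loci had the same order of libraries as the long members, 3.08 and 2.94 against 2.91 and 2.98. What sgScramble replicate 1 contributes to the difference between loci outside and inside genes was measured by leaving it out, which took that difference from -0.066 to -0.035.

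**Figure D4:**
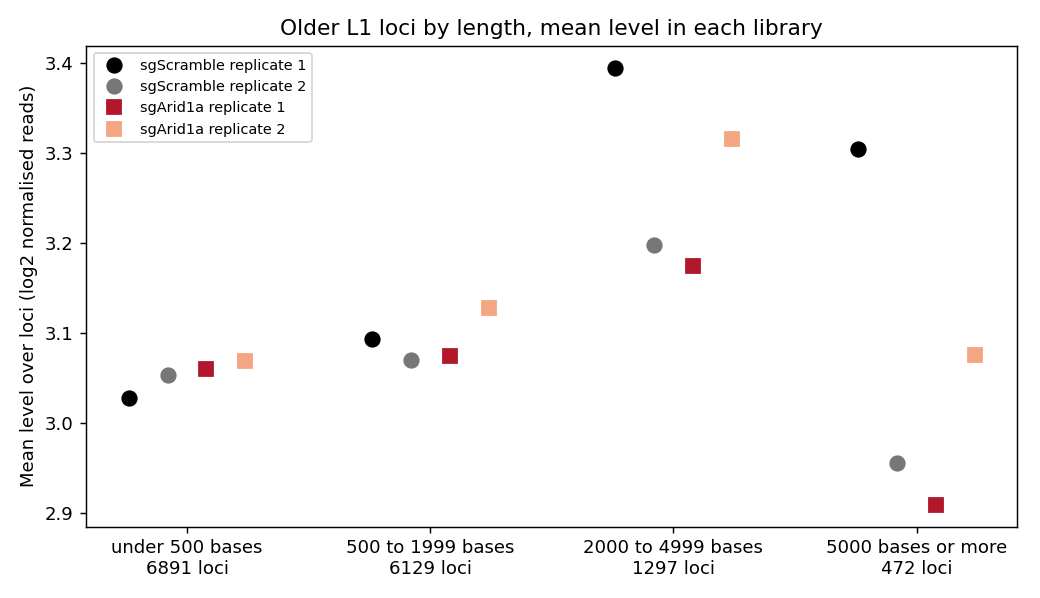
Mean level over loci (y axis, log2 normalised reads) in each of the 4 libraries for 4 length classes of older L1 loci (x axis, with the number of loci). The y axis does not start at 0; in the class of 5000 bases or more sgScramble replicate 1 lies at 3.31 and the other libraries between 2.91 and 3.08.

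Genes linked to the control of L1 or its products, in either direction, were read in the mRNA libraries, from a list of 37 of which 35 were tested. In all, 6 rose and 1 fell, against 5.84% higher and 5.98% lower among 11604 genes, and the list's median change was 0.11 against 0.01 over all genes. Uhrf1, which keeps DNA methylation through replication, read 11.78 and 11.94 in sgScramble against 12.51 and 12.44 in sgArid1a, a rise of 0.61 ± 0.09 (adjusted p = 0.00104). Safb2, an RNA-binding nuclear matrix protein gene, rose by 0.66 ± 0.17 (adjusted p = 0.0267), from 8.29 and 8.93 to 9.31 and 9.22; without sgScramble replicate 1 its change was 0.33 and missed the threshold (adjusted p = 0.128).

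Adar, the RNA-editing enzyme, rose by 0.35 ± 0.10 (adjusted p = 0.0294), from 9.37 and 9.50 to 9.79 and 9.79. Rnaseh2b, a subunit of the ribonuclease that cuts RNA in RNA-DNA hybrids, rose by 0.45 ± 0.13 (adjusted p = 0.0363), from 8.96 and 8.64 to 9.13 and 9.36. Safb and Samhd1, a nucleotide-depleting enzyme, rose by 0.45 and 0.32. Rb1, the retinoblastoma gene, fell by 0.50 ± 0.10 (adjusted p = 0.00794), from 8.51 and 8.44 to 7.98 and 7.97; groups did not overlap in any of these 7. With the replicate block Uhrf1 and Rb1 kept an adjusted p under the threshold (0.0135 and 0.0391), and Adar (0.0952), Safb2 (0.105), Safb (0.108), Rnaseh2b (0.116) and Samhd1 (0.119) did not. Without sgArid1a replicate 1 or 2 Uhrf1 alone passed (0.0235 and 0.0143). Adar, Safb and Samhd1 also missed it without sgScramble replicate 1 (0.0836, 0.209 and 0.0916), and Rnaseh2b without sgScramble replicate 2 (a change of 0.28, adjusted p = 0.102).

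Among the silencing factors of the list, Setdb1, Trim28 and Dnmt1 had values of 0.25, 0.18 and 0.23 that missed the threshold, and Atf7ip and Sirt6 had -0.29 and -0.16. The number past the threshold ran from 1, without either sgArid1a replicate, to 12, without sgScramble replicate 2, and it was 3 without sgScramble replicate 1, the shallowest of these libraries at 8.68 M reads.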

How the data were processed

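The submitters' processing notes name STAR 2.5.3a, HOMER, edgeR and DESeq2 and the build GRCm38 (mm10). Per the file headers, HOMER counted reads on every repeat locus and on gene exons. The deposited values are log2 normalised reads, in which low values are drawn together, so no count model was used. The authors' fold changes and adjusted p-values in log2 came with the repeat table; only their calls were counted. Divergence from the consensus is a fraction of bases deposited with each locus, per the file headers, and is given here in percent. The repeat table calls the control sgNT and the labels call it sgScramble.

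Here limma 3.58.1 (R 4.3.3) with a trended prior was fitted over all repeat loci with a mean of at least 2, over subfamily means of at least 5 such loci, and over genes with a mean of at least 4 (8 libraries of 4 groups), each with Benjamini-Hochberg adjustment at 0.05. Differences between per-library means were tested by exact permutation. Positions came from GENCODE vM21 through bedtools 2.31.1. Places join called loci within 200 kb. The fit was checked on generated values with known changes before use. Their noise was normal, independent between loci and of the same spread for all loci of similar level. Each size of change was planted at 50 loci drawn from all repeats. Over all 103654 repeat loci it recovered 8% of planted log2 changes of 0.5 and 78% of those of 1. Planted changes of 2 and 3 were recovered in 100%, and there were 7 false calls. In these generated values changes of 0.5 were thus mostly missed. Recovery among the older L1 members alone, and with spread that differs between loci, was not tested.

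The members, lists and tests were chosen with earlier results of these data known. Loci named are the 5 highest, the 3 highest of at least 5000 bases, the 5 largest rises and 5 largest falls with a mean of at least 4 and groups that do not overlap, and those at the limit; subfamilies are the 5 with most members and the 5 with the smallest p; genes are up to 4 rises and 4 falls of the L1 control list and the 5 that hold most members. Loci on chromosome 18 and unplaced sequences were passed over, 1 of the 56 that changed among them. Other loci and genes named were chosen after their values were seen. Same-numbered libraries did not deviate together (correlation -0.061 over the members in the repeat libraries and -0.381 over the genes tested in the mRNA libraries), so numbers were not taken as pairs. Alternatives tried were each library left out, other minimum levels, centring, no trend, a replicate block, and loci outside gene spans or, added after seeing the data, outside exons, and a crossed replicate block for the genes.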

Additional observations from a re-analysis of the deposited data

How the results depend on the processing

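The count of 56 older L1 loci past the threshold ranged from 46 to 112 when 1 library was left out, and was 0 with no minimum level (1804944 loci, prior degrees of freedom 4.06 in place of 27, smallest unadjusted p of a member 5.12e-05), 30 among loci outside gene spans and 53 with the replicate block. The 30 are calls of the main fit among the 3237 members outside gene spans, 13 higher and 17 lower, and not a new fit. Inside gene spans, which hold 78.1% of the members, 4 calls were higher and 22 lower. The share of higher calls, 30.4%, was 21.1% after centring and 40.8% and 43.5% at minimum levels of 3 and 4. At a minimum of 4, 1 of 79 older L1 subfamilies passed, downward, beside 17 of 447 subfamilies of all repeats. The mean level difference of 0.011 was -0.010 after centring, and -0.012 to 0.033 with 1 library left out. The other 2 differences between library means kept their sign in every alternative run, between 0.015 and 0.13 for older L1 minus L1Md and between -0.097 and -0.033 for outside minus inside genes; the replicate block gave 0.0106, 0.0737 and -0.0655. The L1 control genes past the threshold, 7, were 3 with no minimum, 2 with the replicate block and 1 to 12 with 1 library left out. Over all genes the replicate block gave 678 calls in place of 1372; with the numbers crossed, added after seeing the data, 1412 genes and 7 of the list passed. The 17 loci followed missed the threshold in 27 of the 169 alternatives run, of which 17 are those with no minimum. The others left out a library, centred or blocked. They concern L1_Mus1, L1VL2 and Lx2 on chromosome 14, Lx7 in Gm38414 and L1MB8 on chromosome 9. That the 17 loci kept their sign throughout supports nothing. Their groups do not overlap, so leaving out a library cannot reverse the sign. The replicate block, the minimum levels and the fit without trend return the same change. Subfamily changes reversed in 17 of 97 alternatives, none past the threshold on either side. With no minimum they were -0.00824 for Lx8, -0.00983 for Lx9, -0.0154 for Lx7, -0.000971 for L1M1 and -0.000739 for HAL1b. For loci outside gene spans they were -0.00899 for Lx9 and -0.0634 for Lx7; after centring Lx7 was -0.0143. At minimum levels of 3 and 4 L1_Mus3 was 0.0622 and 0.0666 and L1_Mus1 0.0402 and 0.0795. With 1 library left out L1_Mus3 ranged from -0.0579 to 0.0513, L1_Mus1 from -0.0607 to 0.0157 and Lx7 from -0.0175 to 0.0303. The cause of these shifts was not tested. Without 1 library the lone sample of its group was assumed to vary like the others. A locus that missed the threshold is not shown to be the same in both groups.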
